A study of Mus musculus with 9 samples.

Results

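The low dose of a xyloside was compared with its vehicle in Neuro2a, a neuroblastoma line from mouse whose cells can grow neurites. Of the 9 RNA-seq libraries of the series, 6 entered the comparison. The 3 LCX libraries came from cells given 500 nM 4-methylumbelliferyl-β-D-xylopyranoside, and the 3 DMSO libraries from cells given the vehicle alone. The other 3 libraries, HCX, came from cells given the same xyloside at 1 mM in the same vehicle. They served here to estimate the spread between libraries and, in a few places, to set the doses side by side. All 9 were wild-type cells of this line in medium with serum. The titles of the LCX and HCX samples and the text of the study give 48 h of treatment, although a legend in the study gives a longer one. The titles of the DMSO samples give no time. Whether replicates were grown as separate cultures is not said in the labels, and the tests therefore measure the spread between these libraries, which may be technical. Of the 24972 rows of the table, the 13179 genes with a value of at least 10 in at least 3 of the 9 libraries were tested. At the edge of this filter, the third-highest value was from 10 to under 11 for 101 genes and from 9 to under 10 for 134 genes that were left out. Cyp2ab1 lay just inside at 10.04 and Gbp9 just outside at 9.9958.

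Xylosides are small sugars that carry xylose on an aglycone. Glycosaminoglycan chains are normally started when a xylosyltransferase adds xylose to a serine of a proteoglycan core protein, and a xyloside offers the chain-building enzymes of the Golgi another starting point, so that chains are made free of a core protein. Heparan and chondroitin sulfate chains on neuronal proteoglycans act in adhesion, in growth factor binding and in the steering of growth cones, whose shape rests on actin filaments at the edge and microtubules in the centre. The question put to the RNA was which gene classes, above all those of actin, microtubules, growth cones and glycosaminoglycan synthesis, held to the DMSO level at 500 nM, and within what limits.

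The deposited values are normalized counts on a linear scale, not divided by gene length, so the level of a gene is used below as a measure of how many reads lie behind it and not to rank genes. They summed to 36560895 to 36667123 per library in DMSO and to 35597229 to 35668474 in LCX. Rescaling placed the DMSO libraries 2.93% above the other 6, and this offset was removed, together with any change that most RNA of the cells may share. After rescaling, the median absolute log2 difference between a DMSO and an LCX library was 0.078 to 0.113, against 0.0998 to 0.127 between DMSO libraries and 0.079 to 0.0861 between LCX libraries. Cell identity was read from 20 markers of sympathetic neuroblasts, of which 19 passed the filter, and their summed level was 146900 to 153450 in DMSO and 152710 to 154260 in LCX. Of 32 markers of mesenchymal, epithelial, immune, endothelial, glial and Schwann cells 15 passed, and 2 were at 0 in all 6 libraries. Their summed level was 4562 to 4833 in DMSO and 4895 to 5358 in LCX, of which the mesenchymal markers made up 3452 to 3720.0 and 3771 to 4222. These sums did not overlap between the groups. The largest part of the mesenchymal sum was Acta2, which is also among the actins below. Acta2 alone read 2513, 2173 and 2308 in DMSO and 2411, 2928 and 2490.1 in LCX, with overlapping groups. The part of these markers in the results below was not tested.

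No gene was called between LCX and DMSO (limma, adjusted p under 0.05 over 13179 genes, 0%). The smallest adjusted p was 0.18, and 427 genes (3.24%) had an unadjusted p under 0.05, where 659 would be reached on average if no gene differed. limma-voom also called 0, with 431 genes at an unadjusted p under 0.05. A fit to the 6 libraries alone called 2, Tmem254c and Zfp966, whose sequences are shared with other genes. Without DMSO replicate 3 the count was 1, without LCX replicate 1 it was 2, and without DMSO replicate 2 no gene was called but 799 had an unadjusted p under 0.05. The LCX values lay wholly above the DMSO values for 615 genes (4.67%) and wholly below them for 549 (4.17%), or 8.83% in either direction. A missed threshold does not show that a gene held its level, so the limits on each gene's change were tested directly. A gene was called bounded within a margin when 2 one-sided limma tests, adjusted over all genes, placed its change inside that margin in both directions. By this test 8451 genes (64.1%) were bounded within 1.2-fold, 11133 (84.5%) within 1.5-fold and 12145 (92.2%) within 2-fold. On the log2 scale these margins are 0.263, 0.585 and 1. The genes bounded within 1.2-fold carried 96% of all normalized counts. The median log2 fold change was 0.00283, and from the 5% to the 95% point of all genes it ran from -0.231 to 0.25. Of all genes, 6781 lay above 0 and 6398 below. The 95% interval of the median gene reached 0.153 on the log2 scale to either side of its estimate, which is 1.112-fold. Without rescaling the median of all genes was -0.0389, and small list medians above 0, such as that of the tubulin genes (-0.0014 without rescaling), turned below it, so every difference is given relative to the rescaled libraries. A gene called bounded can have a 95% interval that ends slightly outside the margin, and by the intervals alone 62.3%, 83% and 90.6% of genes lay inside the 3 margins.

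How tightly a gene was bounded followed its level. Among the 7035 genes with a mean above 1000 normalized counts over the 9 libraries, 6819 (96.9%) were bounded within 1.2-fold. At 300 to 1000 the share was 58.8%, at 100 to 300 it was 2.27%, and below 100 no gene was bounded so tightly. The 2-fold margin was met by 99.1% of genes at 100 to 300, by 87.6% at 30 to 100, by 28.8% at 10 to 30 and by 0% below 10. The 1034 genes not bounded even at 2-fold had a median level of 14.3, 889 of them lay under 30, and together they held 0.0657% of all counts. Their number depended on how low values were treated, and it was 215 with 10 added before the log, 181 of 12289 genes when at least 10 was asked of every library and 4942 of 17185 genes with no filter. A share of bounded genes in a class therefore has to be read beside the level of that class.

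**Figure D1:**
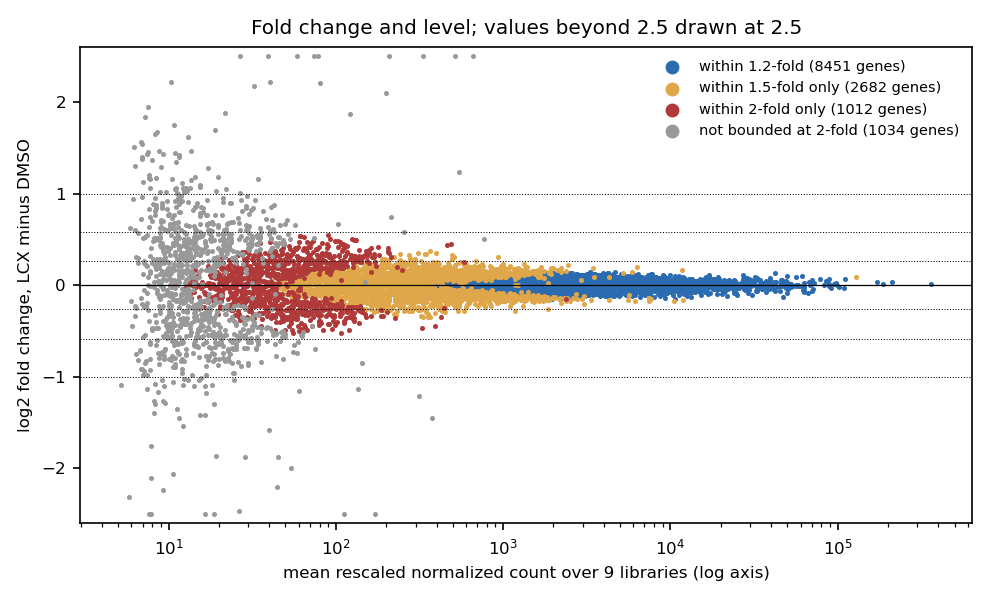
Each point is 1 of the 13179 genes tested, with its mean rescaled normalized count over the 9 libraries on a log axis and its log2 fold change of LCX minus DMSO. The 8451 genes bounded within 1.2-fold lie at the higher levels and the 1034 not bounded at 2-fold mostly at the lower ones.

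A list of 58 genes of the cytoskeleton, growth cone and glycosaminoglycan pathway was examined gene by gene, and 55 of them passed the filter. Of these, 49 were bounded within 1.2-fold, 51 within 1.5-fold and 53 within 2-fold, and 1, Mapre3, had an unadjusted p under 0.05. The 49 had log2 fold changes from -0.0466 for Mapre1 to 0.114 for Ptprs. The far end of the 95% interval lay between 1.067-fold for Stmn1 and 1.208-fold for Xylt2. The 6 others were Mapre3, Ndst2, Sulf1, Sulf2, Csgalnact1 and Chst15, whose means were 467, 411, 43, 11.5, 8.26 and 25.9 normalized counts. With HCX against LCX, 17 of the same 55 genes were called, 11 lower (8.95% of all genes were) and 6 higher (8.34%), where 17.3% of all genes were called in either direction. The lower ones were Actr3, Flna, Tubb5, Map1b, Stmn1, Dpysl3, Gap43, Ndst1, Hs2st1, Gpc1 and Ptprs, and the higher ones Actn1, Actn4, Ezr, Enah, Mapre1 and Chsy1.

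**Figure D2:**
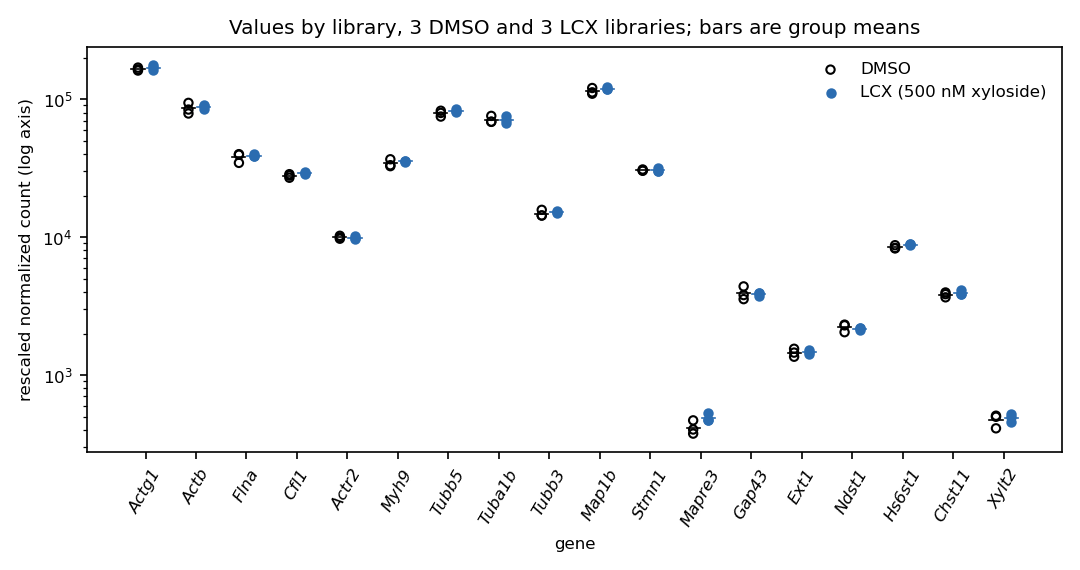
Rescaled normalized counts of 18 genes on a log axis, open circles for the 3 DMSO libraries and filled circles for the 3 LCX libraries, with short bars for the group means. The circles of a gene lie close together in both groups, as for Stmn1, with means of 30534 in DMSO and 30514 in LCX.

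Actin forms the filaments that push the cell edge forward. The cytoplasmic actin gene Actb (chromosome 5, 142903115 to 142906754, minus strand, GRCm38) read 93971, 84068 and 78703 in DMSO and 88861, 91183 and 84940.3 in LCX. The LCX values lay inside the DMSO range, and the log2 fold change was 0.049 (95% interval -0.07 to 0.17). The other cytoplasmic actin, Actg1 (chromosome 11, 120345690 to 120348542, minus strand), read 169345, 164303 and 161178 in DMSO and 169757, 175608 and 162997 in LCX, with overlapping groups and a difference of 0.039 (-0.069 to 0.15). Both were bounded within 1.2-fold, although 23.5% of the 31-base stretches of Actb and 40.2% of those of Actg1 also occur in other genes. The muscle-type actins had lower counts and were less tightly held. Acta2 read 2513, 2173 and 2308 in DMSO and 2411, 2928 and 2490.1 in LCX, overlapping, with a difference of 0.16 (-0.058 to 0.38), and Actc1 differed by 0.33 (-0.42 to 1.09). Acta1 was wholly higher in LCX at 45.1, 48.2 and 52 in DMSO and 68.9, 65.6 and 55.1 in LCX, by 0.37 (-0.34 to 1.09). All 6 actins had a log2 fold change above 0, beside 6781 of all 13179 genes, with a median of 0.25. Actb and Actg1, which held most of the actin counts, lay below that median, at 0.049 and 0.039. All 6 were bounded within 2-fold, and none had an unadjusted p under 0.05.

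Over the whole list of 101 actin and lamellipodium genes 96 were tested, and 87 (90.6%) were bounded within 1.2-fold, 91 within 1.5-fold and 96 within 2-fold, at a median level of 4163. The median log2 fold change was 0.01, with 54 genes above 0 and 42 below, beside 0.00283 over all genes. All 29 tested genes of nucleation, branching and elongation were bounded within 1.2-fold. This group holds Arp2/3, which branches filaments and of which Actr2 and Actr3 are subunits. Actr2 differed by -0.0086 (-0.095 to 0.078) and Actr3 by -0.0093 (-0.094 to 0.075), and in both the LCX values lay inside the DMSO range. The WAVE complex, which turns on Arp2/3 at the lamellipodium, had subunits on either side of 0. Wasf1 read 3907, 3769.8 and 3552 in DMSO and 3993, 4239 and 3962 in LCX, wholly higher in LCX, by 0.12 (0.018 to 0.22) at an unadjusted p of 0.0232 (limma). Brk1, a small subunit of the same complex, read 4019, 4054 and 4286 in DMSO and 3894, 3981 and 3624 in LCX, wholly lower in LCX, by -0.10 (-0.21 to -0.0033). Both were bounded within 1.2-fold. Enah, an elongation factor of filopodia and lamellipodia, differed by -0.046 (-0.15 to 0.061).

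Among the 20 genes of filament turnover and capping 18 were bounded within 1.2-fold. Cfl1, the severing protein cofilin, read 27912, 28592 and 26937 in DMSO and 28656, 29881 and 29118 in LCX. Its LCX values lay wholly above the DMSO values, by 0.071 (-0.037 to 0.18). Profilin, Pfn1, which feeds actin monomers to growing ends, differed by 0.02 (-0.072 to 0.11). Of the 25 bundling and crosslinking genes 24 were bounded within 1.2-fold. Fscn1, which bundles filaments in filopodia, was also wholly higher in LCX, by 0.074 (-0.013 to 0.16), while the LCX values of Flna, a crosslinker, lay inside the DMSO range, at 0.042 (-0.066 to 0.15). The crosslinkers Actn1 and Actn4 differed by 0.07 (-0.033 to 0.17) and 0.032 (-0.053 to 0.12), and Ezr, which ties filaments to the membrane, by 0.064 (-0.04 to 0.17). Pls3, another bundling protein, with a mean of 135, was bounded within 2-fold alone, at -0.27 (-0.66 to 0.11).

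Small GTPases set the balance between lamellipodia, filopodia and stress fibres. Rac1 differed by 0.0096 (-0.078 to 0.097), Cdc42 by -0.045 (-0.14 to 0.046) and Rhoa by -0.011 (-0.099 to 0.077), each with overlapping groups and each bounded within 1.2-fold. Iqgap1, a scaffold of Rac1 and Cdc42, read 7841, 7196 and 7053 in DMSO and 7625, 8160.2 and 8234 in LCX. Its groups overlapped, and its difference was 0.12 (0.017 to 0.23) at an unadjusted p of 0.025 (limma). With Wasf1 and Brk1 it made up the 3 of the 96 genes with an unadjusted p under 0.05, beside 3.24% of all genes. In all, 6 of the 96 genes lay wholly higher in LCX and 2 wholly lower, beside 8.83% of all genes in either direction.

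Non-muscle myosin pulls the actin network back. Of 27 myosin genes 22 were tested, and 15 (68.2%) were bounded within 1.2-fold and 21 within 1.5-fold, at a median level of 2564. Myh9 read 36666, 33206 and 32686 in DMSO and 35633, 35046 and 35869.9 in LCX, and its LCX values fell inside the DMSO range. Its difference was 0.057 (-0.044 to 0.16), that of Myh10 was 0.046 (-0.051 to 0.14), that of the light chain Myl6 was -0.035 (-0.13 to 0.06) and that of Myo5a, a cargo motor, was 0.033 (-0.059 to 0.13). Myo7a, an unconventional myosin of actin bundles, read 230.5, 287 and 207 in DMSO and 277, 304 and 321 in LCX. Its groups overlapped through DMSO replicate 2, and its difference was 0.33 (0.059 to 0.59) at an unadjusted p of 0.0194 (limma), bounded within 1.5-fold.

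Microtubules are built of α- and β-tubulin. Of 27 genes for tubulins and for their folding and modification 26 were tested, and 23 (88.5%) were bounded within 1.2-fold and 26 within 1.5-fold. The median difference was 0.04 after rescaling and -0.0014 before it. After rescaling 21 of the 26 lay above 0, beside 6781 of all 13179 genes. The list's mean deviation from the DMSO level, on the log2 scale, was -0.0388, 0.0724 and -0.0336 in DMSO. In LCX it was 0.0345, 0.0398 and 0.0602, so the groups overlapped through DMSO replicate 2. Tubb5 (chromosome 17, 35833921 to 35838306, minus strand), a widely expressed β-tubulin, read 79425, 82412 and 74790.1 in DMSO and 81139, 84466 and 82035 in LCX, overlapping, with a difference of 0.067 (-0.045 to 0.18). Tubb3, the neuronal β-tubulin, differed by 0.043 (-0.054 to 0.14), and Tubb2b, which is also prominent in young neurons, by 0.024 (-0.14 to 0.19). Tuba1c read 40648, 40869 and 39344 in DMSO and 42427, 45167 and 44922 in LCX, wholly higher in LCX, by 0.13 (0.013 to 0.25) at an unadjusted p of 0.0318 (limma), and it was still bounded within 1.2-fold. Agbl5, a carboxypeptidase that trims glutamates from tubulin tails, had the other unadjusted p under 0.05 among the tubulin genes (0.0406, limma) at a difference of 0.15 (0.0073 to 0.30). These 2 of 26 are to be read beside 3.24% of all genes.

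The 3 Tuba1 genes lie together on chromosome 15 and are close copies, so that their reads can be assigned to the wrong member. On GRCm38 the genes are at 98931425 to 98934565, minus strand (Tuba1b), 98949837 to 98953703, minus strand (Tuba1a) and 99029891 to 99038110, plus strand (Tuba1c). Of the 31-base stretches of Tuba1c 55.3% occur in another gene, so its difference is uncertain. The sum of the 3 was 174402, 192170.0 and 169685 in DMSO and 182923, 191622 and 181864 in LCX. The sums overlapped, with an LCX to DMSO ratio of means of 1.04.

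Proteins that ride on microtubules set how fast they grow, where they stop and how they are bundled. Of 57 such genes 54 were tested, and 51 (94.4%) were bounded within 1.2-fold, at a median level of 3617. Map1b (chromosome 13, 99421446 to 99516540, minus strand), a bundling protein of growing axons, read 120436, 109516 and 112033 in DMSO and 117544, 121926 and 117717 in LCX. The groups overlapped, and the difference was 0.064 (-0.051 to 0.18). Map2 and Mapt, the bundling proteins of dendrites and axons, differed by 0.0028 (-0.11 to 0.12) and 0.013 (-0.087 to 0.11). Stmn1, which sequesters tubulin, read 30278, 30928 and 30397 in DMSO and 31465, 30096 and 29979.5 in LCX, overlapping, and had the limit nearest to no change of the 55 genes, at -0.0013 (-0.093 to 0.091). The dynein heavy chain Dync1h1 differed by 0.03 (-0.077 to 0.14).

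Mapre3 (chromosome 5, 30814641 to 30866106, plus strand) encodes EB3, a protein of growing microtubule ends that is prominent in neurons. It read 403, 469.8 and 377 in DMSO and 470.1, 469 and 535 in LCX. DMSO replicate 2 was as high as the lower LCX libraries, so the groups overlapped. The difference was 0.24 (0.033 to 0.45) at an unadjusted p of 0.0256 (limma), bounded within 1.5-fold but not within 1.2-fold. Its relative Mapre1, which encodes EB1, differed by -0.047 (-0.14 to 0.051). The motor gene Kif1a was the member of the class not bounded at 2-fold, at 27.7, 21.2 and 10.6 in DMSO and 17.5, 32 and 31.7 in LCX.

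**Figure D3:**
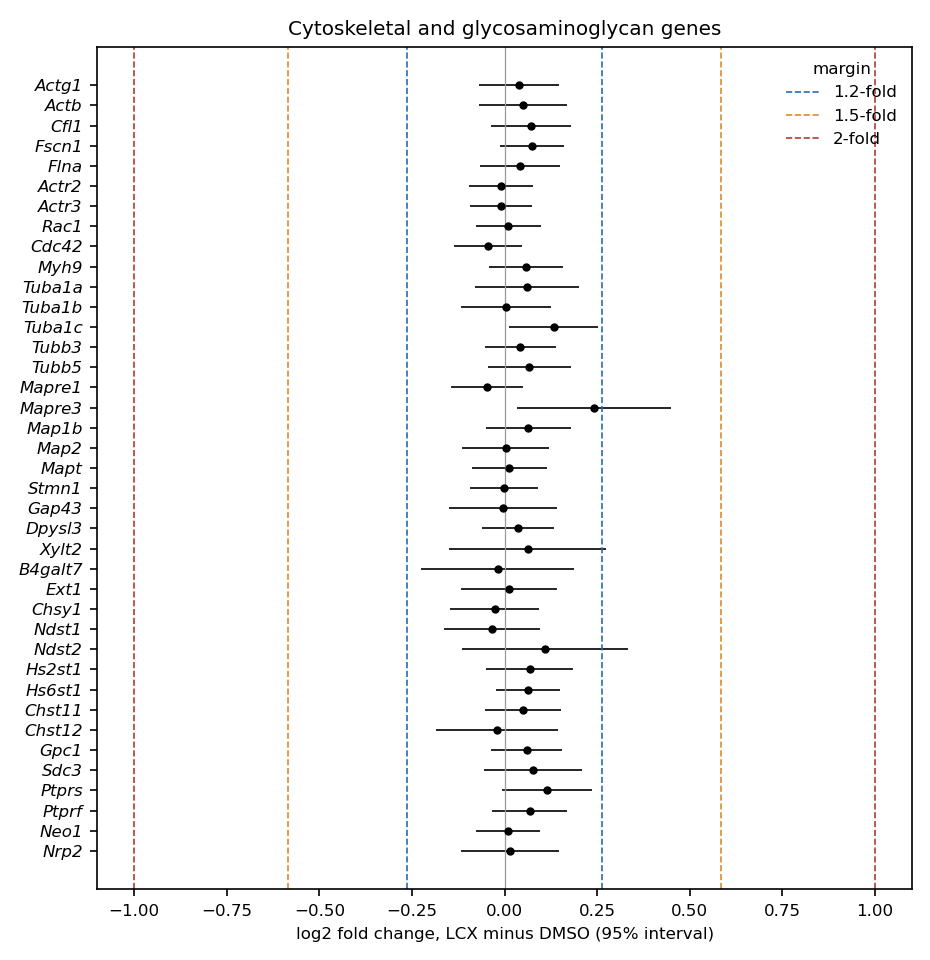
Log2 fold changes of LCX minus DMSO with 95% intervals from the limma fit for 39 cytoskeletal, glycosaminoglycan, proteoglycan and guidance genes. Dashed lines mark the 1.2-, 1.5- and 2-fold margins; the intervals of Mapre3, Ndst2 and Xylt2 cross the 1.2-fold line and the others end inside it.

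The growth cone list covers proteins of the advancing neurite tip. Of its 24 genes 21 were tested, 17 (81%) were bounded within 1.2-fold, and 0 had an unadjusted p under 0.05. Gap43 (chromosome 16, 42248442 to 42340651, minus strand), a membrane protein of growing axons, read 3552, 4393 and 3801 in DMSO and 3961, 3755 and 3958 in LCX. The LCX values lay inside the DMSO range, with a difference of -0.0035 (-0.15 to 0.14). With HCX against LCX its difference was -0.63 (adjusted p = 4.54e-06, limma), lower at the higher dose. Basp1 and Marcks, which act like Gap43 at the membrane, differed by 0.056 (-0.045 to 0.16) and -0.0042 (-0.13 to 0.12). Dpysl2, Dpysl3 and Crmp1, of a family that binds tubulin downstream of semaphorins, differed by 0.005 (-0.12 to 0.13), 0.037 (-0.061 to 0.13) and 0.039 (-0.058 to 0.14). Rtn4, known as Nogo, differed by -0.032 (-0.12 to 0.056) and the adhesion molecule Ncam1 by 0.08 (-0.018 to 0.18). Nfasc and Cntn2, adhesion proteins of axons with means of 11.6 and 17.3, were not bounded at 2-fold.

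Guidance ligands and receptors were held less tightly, and their counts were also lower. Of 61 genes 41 were tested, and 19 (46.3%) were bounded within 1.2-fold, 32 within 1.5-fold and 40 within 2-fold, at a median level of 654. The 23 ligands had a median level of 293, and 8 of them were bounded within 1.2-fold. The 18 receptors had a median level of 1869, and 11 were. Neo1, a receptor of netrins and repulsive guidance molecules, read 14929, 14806 and 14857 in DMSO and 14648, 14802 and 15454 in LCX, overlapping, with a difference of 0.0097 (-0.077 to 0.096). Nrp2, a semaphorin co-receptor, differed by 0.014 (-0.12 to 0.15), and Unc5b, a netrin receptor, by 0.027 (-0.11 to 0.16). The semaphorin Sema6a read 1306, 1269 and 1125 in DMSO and 1334, 1342 and 1509 in LCX, wholly higher in LCX by 0.18 (0.032 to 0.32). It and Unc5a, another netrin receptor, wholly higher by 0.13 (0.02 to 0.24), were the 2 of 41 members with an unadjusted p under 0.05, beside 3.24% of all genes. In 4 of the 41 the LCX values were wholly higher and in 0 wholly lower, beside 4.67% and 4.17% of all genes. The slit receptor Robo2 was not bounded at 2-fold, at 1.78, 12 and 0.979 in DMSO and 8.7, 8.98 and 12.7 in LCX.

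The enzymes that start and extend the chains were examined next. Xylosyltransferases start chains on core proteins. Xylt1 was at 0 in all 9 libraries, and Xylt2 (chromosome 11, 94663851 to 94677515, minus strand) read 508, 411 and 498 in DMSO and 522, 500.3 and 454 in LCX, overlapping, with a difference of 0.062 (-0.15 to 0.27). B4galt7, the galactosyltransferase that extends xylose on a core protein or on a xyloside, read 532, 571 and 547 in DMSO and 529, 523 and 577 in LCX. It overlapped and differed by -0.019 (-0.23 to 0.19). Fam20b, the xylose kinase, differed by -0.017 (-0.11 to 0.076). Xylt2, B4galt7 and Fam20b were each bounded within 1.2-fold. Of the 7 genes of the linkage region 6 were tested, and 5 were bounded within 1.2-fold and 6 within 1.5-fold. In 1 of them the LCX values were wholly lower, beside 4.17% of all genes. Of all 30 genes for the linkage region, the polymerases and the sugar and sulfate donors, 28 were tested, 21 (75%) were bounded within 1.2-fold and 27 within 2-fold, with a median difference of -0.0058. None of them had an unadjusted p under 0.05.

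Ext1 (chromosome 15, 53064038 to 53346159, minus strand), a heparan sulfate polymerase, read 1552, 1455 and 1358 in DMSO and 1509.9, 1412 and 1474 in LCX, inside the DMSO range, with a difference of 0.012 (-0.12 to 0.14), and its relative Extl1 differed by 0.014 (-0.085 to 0.11). Chsy1, a chondroitin polymerase, differed by -0.027 (-0.15 to 0.093), and Chpf, its partner, by 0.077 (-0.026 to 0.18). Csgalnact1, which starts chondroitin chains, was near the filter at 13.6, 7.98 and 0 in DMSO and 8.08, 2.94 and 9.23 in LCX, and it was the tested member of this list not bounded at 2-fold. Among the donor genes, Ugdh, which makes UDP-glucuronic acid, differed by 0.026 (-0.12 to 0.17) and Papss1, which makes the sulfate donor, by -0.023 (-0.14 to 0.095).

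Sulfotransferases write the sulfation pattern that decides which proteins a chain binds. Of the 28 genes of sulfation and editing 15 passed the filter, and 8 (53.3%) were bounded within 1.2-fold, 11 within 1.5-fold and 13 within 2-fold, at a median level of 411. Ndst1 (chromosome 18, 60684494 to 60748650, minus strand), an N-sulfotransferase of heparan sulfate, read 2293, 2046 and 2321 in DMSO and 2200.1, 2106 and 2188 in LCX. The LCX values lay inside the DMSO range, with a difference of -0.034 (-0.16 to 0.095). Hs6st1 (chromosome 1, 36068400 to 36106446, plus strand), a 6-O-sulfotransferase, read 8736, 8281 and 8351 in DMSO and 8909, 8878 and 8701 in LCX. It overlapped and differed by 0.063 (-0.024 to 0.15). Chst11 (chromosome 10, 82985498 to 83195900, plus strand), a chondroitin 4-O-sulfotransferase, differed by 0.049 (-0.053 to 0.15), its relative Chst12 by -0.02 (-0.19 to 0.15), the 2-O-sulfotransferase Hs2st1 by 0.068 (-0.05 to 0.18), and the epimerase Glce by -0.064 (-0.18 to 0.049). Ndst2 read 403, 482 and 364 in DMSO and 468, 429 and 441 in LCX, inside the DMSO range, and was bounded only within 1.5-fold, at 0.11 (-0.12 to 0.33).

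Enzymes of rarer edits had few counts. Sulf1 and Sulf2, the extracellular 6-O-sulfatases, had differences of -0.0049 (-0.71 to 0.70) and 0.17 (-0.93 to 1.27). Chst15, which makes disulfated chondroitin, read 25.8, 35.2 and 32.5 in DMSO and 14.3, 33.2 and 40.5 in LCX, overlapping, and was bounded only within 2-fold. Chst3, a chondroitin 6-O-sulfotransferase, stayed below the filter at 16.6, 7.04 and 9.6 in DMSO and 8.19, 9.77 and 6.09 in LCX. Hs6st2 was at 0 in all 9 libraries. At these counts the change of Sulf2, Chst3 and Hs6st2 could not be bounded.

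The chains are degraded in lysosomes. All 17 genes for these enzymes were tested, 11 (64.7%) were bounded within 1.2-fold and 17 within 1.5-fold. The LCX values were wholly higher for 5 of them and wholly lower for 0, beside 4.67% and 4.17% of all genes. The median difference was 0.05 after rescaling and 0.0081 before it. Naglu, which removes N-acetylglucosamine from heparan sulfate, read 2826, 2871 and 2883 in DMSO and 2963, 3178 and 3096 in LCX. It was wholly higher in LCX by 0.11 (0.0026 to 0.21) at an unadjusted p of 0.045 (limma), bounded within 1.2-fold. Hexa, a hexosaminidase subunit, differed by 0.029 (-0.07 to 0.13). Of the 28 tested genes of lysosomes in general 26 (92.9%) were bounded within 1.2-fold, with the membrane protein Lamp1 at 0.038 (-0.052 to 0.13) and the saposin precursor Psap at -0.014 (-0.097 to 0.068).

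Core proteins carry the chains and receptors read them. Of 39 genes 25 were tested, and 18 (72%) were bounded within 1.2-fold, 22 within 1.5-fold and 23 within 2-fold. Their median difference was 0.051 after rescaling and 0.0091 before it. After rescaling 20 of 25 lay above 0, beside 6781 of all 13179 genes. The list's mean deviation from the DMSO level, on the log2 scale, was 0.0735, 0.0475 and -0.121 in DMSO. In LCX it was -0.00115, 0.00644 and 0.068. DMSO replicate 1 lay above every LCX library and DMSO replicate 3 below them, so the groups overlapped on this mean. The heparan sulfate proteoglycans Gpc1 and Agrn differed by 0.06 (-0.036 to 0.16) and 0.051 (-0.065 to 0.17), and Sdc3, a syndecan of neurons, by 0.077 (-0.056 to 0.21). Vcan, a chondroitin sulfate proteoglycan, differed by 0.029 (-0.13 to 0.19), and App and Aplp2, membrane proteins of which some forms carry chondroitin sulfate, by 0.033 (-0.065 to 0.13) and 0.0049 (-0.087 to 0.097). Ptprs (chromosome 17, 56412426 to 56476483, minus strand), a receptor phosphatase that binds both kinds of chain, read 3324, 3050.0 and 2882 in DMSO and 3372, 3471 and 3165 in LCX. DMSO replicate 1 lay within the LCX range, and the difference was 0.11 (-0.0072 to 0.23) at an unadjusted p of 0.0639 (limma). Its relative Ptprf was wholly higher in LCX by 0.068 (-0.033 to 0.17). Cspg4, at 68.1, 61.2 and 56.2 in DMSO and 39.2, 54.8 and 35.8 in LCX, was wholly lower in LCX, and neither it nor Tgfbr3, with a mean of 10.6, was bounded at 2-fold.

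Integrins bind the matrix and link it to actin at focal adhesions. Of 23 tested genes of this class 19 (82.6%) were bounded within 1.2-fold. Itgb1, the common β-integrin, differed by 0.036 (-0.062 to 0.13), Itga6, a laminin receptor chain, by 0.017 (-0.087 to 0.12) and Git1, an adaptor of focal adhesions, by 0.012 (-0.087 to 0.11). Bcar1, a docking protein of focal adhesions, read 4961, 4819.8 and 4674 in DMSO and 5175, 5353 and 5119.6 in LCX. It was wholly higher in LCX by 0.11 (0.021 to 0.21) at an unadjusted p of 0.0184 (limma) and was bounded within 1.2-fold. Itga2, a collagen receptor chain, was wholly higher by 0.20 (0.016 to 0.39), bounded within 1.5-fold. The groups did not overlap for 5 genes higher and 2 lower in LCX, beside 4.67% and 4.17% of all genes.

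Matrix genes were held more loosely, at a median level of 191. Of 40 genes 20 were tested, and 9 (45%) were bounded within 1.2-fold and 18 within 2-fold. Those with many counts were close to no change, with fibronectin, Fn1, at 0.031 (-0.086 to 0.15), the collagen Col4a2 at 0.053 (-0.069 to 0.17) and the laminin Lamc1 at 0.025 (-0.075 to 0.12). Of 16 tested cadherin and catenin genes 8 (50%) were bounded within 1.2-fold, with the catenins Ctnnb1 at -0.014 (-0.10 to 0.076) and Ctnna1 at 0.02 (-0.072 to 0.11). Cdh1, epithelial cadherin, had few counts at 15.6, 8.02 and 14.4 in DMSO and 2.03, 5.87 and 5.1 in LCX. It was wholly lower in LCX, with a wide interval from -2.75 to -0.034 at an unadjusted p of 0.0451 (limma). Of 13 tested intermediate filament genes 10 (76.9%) were bounded within 1.2-fold, and Prph, Vim and Ina differed by 0.029 (-0.071 to 0.13), 0.055 (-0.051 to 0.16) and 0.097 (-0.0066 to 0.20).

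**Figure D4:**
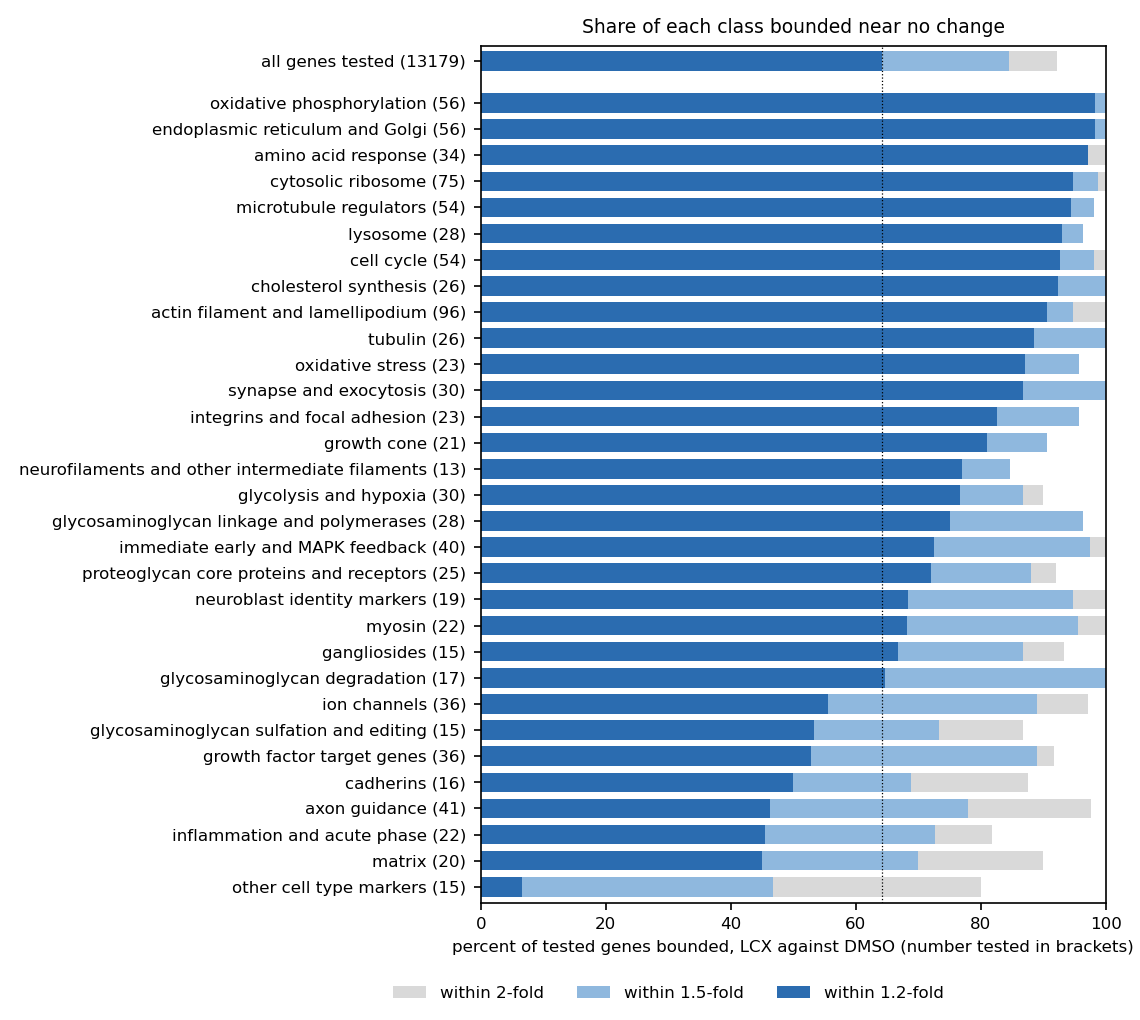
Percent of the tested genes of each of 31 lists, and of all 13179 genes, bounded within 1.2-, 1.5- and 2-fold between LCX and DMSO, drawn from a common 0 so that the bars overlie each other. The dotted line marks 64.1%, the share of all genes bounded within 1.2-fold; oxidative phosphorylation (98.2%) lies above it and matrix (45%) below.

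Outside the cytoskeleton and the chains, classes of basic metabolism and secretion were held tightly, at levels where nearly all genes were. Of all genes at a level of 3000 to 10000, 99.3% were bounded within 1.2-fold, and above 10000 also 99.3%. The median levels of the lists in this paragraph ran from 3359 for endoplasmic reticulum and Golgi to 12148 for the ATF4 genes. Of 56 oxidative phosphorylation genes 55 (98.2%) were bounded within 1.2-fold, and of 56 endoplasmic reticulum and Golgi genes 55 (98.2%). The chaperones Hspa5, Hsp90b1 and Calr of the endoplasmic reticulum differed by 0.045 (-0.09 to 0.18), 0.026 (-0.097 to 0.15) and 0.081 (-0.059 to 0.22). Gorasp2, a stacking protein of the Golgi, was wholly higher in LCX by 0.088 (-0.0018 to 0.18). Of 34 genes induced by amino acid shortage through ATF4 33 (97.1%) were bounded within 1.2-fold. Asns, which makes asparagine, read 47098, 48566 and 47714 in DMSO and 47836, 49748 and 48809 in LCX, overlapping, with a difference of 0.03 (-0.063 to 0.12), and Atf4 itself differed by 0.0018 (-0.093 to 0.096). Of 26 cholesterol and fatty acid synthesis genes 24 (92.3%) were bounded within 1.2-fold, with Fasn, fatty acid synthase, at 0.014 (-0.086 to 0.12) and the desaturase Scd2 at 0.032 (-0.09 to 0.15). Of 54 cell cycle genes 50 (92.6%) were, among them all 20 of S phase and all 20 of mitosis. The proliferation marker Mki67 differed by 0.075 (-0.037 to 0.19), the topoisomerase Top2a by 0.042 (-0.061 to 0.14) and the mitotic kinase Plk1 by 0.13 (0.0093 to 0.25) with overlapping groups.

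Genes of the cytosolic ribosome were bounded closely and sat mostly below 0. All 75 were tested and 71 (94.7%) were bounded within 1.2-fold, at a median level of 32910. Of all genes above 10000, 99.3% were bounded so tightly. Their median difference was -0.037, and 61 of them lay below 0, where 6398 of all 13179 genes did. In 8 the LCX values were wholly lower and in 0 wholly higher, while 4.17% of all genes were wholly lower. The 11 with an unadjusted p under 0.05, a share to be read beside 3.24% of all genes, were all lower. Rps13, of the small subunit, read 11125, 12195 and 11265 in DMSO and 10389, 10272 and 10396 in LCX, wholly lower by -0.15 (-0.25 to -0.063) at an unadjusted p of 0.00215 (limma), bounded within 1.2-fold. Rps27, with a mean of 138, was wholly lower by -0.41 (-0.77 to -0.049). Other members lay at 0 change, with Rpl4 at -0.0027 (-0.12 to 0.11), Rpsa at 0.02 (-0.097 to 0.14) and Rplp0 at 0.01 (-0.091 to 0.11). Read library by library, the list's mean deviation on the log2 scale was -0.072, 0.047 and 0.025 in DMSO and -0.033, -0.073 and -0.041 in LCX. DMSO replicate 1 lay as low as the LCX libraries, so the groups overlapped on this mean. Ribosomal genes have processed copies elsewhere in the genome, and 5 of the 75 share at least 50% of their 31-base stretches.

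Oxidative phosphorylation genes had 44 of 56 below 0, where 6398 of all 13179 genes were, and a median of -0.024. The LCX values were wholly lower for 7 and wholly higher for 1, beside 4.17% and 4.67% of all genes. Ndufa4, a respiratory chain subunit, read 5392, 5784 and 6082 in DMSO and 5361, 4987 and 5094 in LCX. It was wholly lower by -0.16 (-0.27 to -0.044) at an unadjusted p of 0.00947 (limma). Atp5b, of the ATP synthase, differed by -0.017 (-0.12 to 0.081). The list's mean deviations were -0.054, 0.019 and 0.036 in DMSO and -0.0096, -0.032 and -0.036 in LCX, again overlapping through DMSO replicate 1.

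Immediate early genes are switched on by growth factor signals, and feedback genes of the MAPK pathway report on its activity. Of 40 such genes 29 (72.5%) were bounded within 1.2-fold, 39 within 1.5-fold and 40 within 2-fold, and 0 had an unadjusted p under 0.05. Egr1, an immediate early transcription factor, read 11904, 12331 and 8749.8 in DMSO and 11917, 12454 and 12341 in LCX. DMSO replicate 3 alone was low, and the difference was 0.17 (-0.0072 to 0.35). Dusp6, a phosphatase induced by ERK, differed by -0.058 (-0.16 to 0.042) and Myc by -0.006 (-0.13 to 0.12). Of 36 genes of TGF-β, BMP, Wnt, Hedgehog and FGF signalling, with both targets and receptors among them, 19 (52.8%) were bounded within 1.2-fold. Their median level was 683. Id3, a target of BMP, read 558, 595 and 670.0 in DMSO and 568, 499 and 441 in LCX, overlapping, with a difference of -0.28 (-0.49 to -0.069) at an unadjusted p of 0.0118 (limma), bounded within 1.5-fold. The Wnt inhibitor Dkk1 differed by -0.037 (-0.16 to 0.082). Of 22 tested inflammation genes 10 (45.5%) were bounded within 1.2-fold, with B2m, the light chain of class I molecules, at 0.038 (-0.069 to 0.14) and Nfkbia, the inhibitor of NF-κB, at -0.12 (-0.25 to 0.00023).

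Oxidative stress genes were bounded within 1.2-fold in 20 of 23 instances (87%) and glycolysis and hypoxia genes in 23 of 30 (76.7%). Sod1, superoxide dismutase, differed by -0.11 (-0.20 to -0.018) with overlapping groups, and Gapdh, a glycolytic enzyme, by 0.063 (-0.059 to 0.18). Of 30 synapse and exocytosis genes 26 (86.7%) were bounded within 1.2-fold and 30 within 1.5-fold. Pcsk1n, an inhibitor of prohormone processing, read 2912, 3587 and 3198 in DMSO and 3651, 3616 and 3763 in LCX, wholly higher in LCX by 0.19 (0.057 to 0.32) at an unadjusted p of 0.00766 (limma). Vgf, a secreted neuronal precursor, was wholly higher by 0.098 (-0.011 to 0.21). Ion channels, at a median level of 1005, were bounded within 1.2-fold in 20 of 36 instances (55.6%), with the potassium channel Kcnh2 at 0.023 (-0.077 to 0.12) and the nicotinic subunit Chrna3 at 0.019 (-0.10 to 0.14).

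Gangliosides are the sialylated glycolipids of neuronal membranes. Of 15 tested genes of their synthesis 10 (66.7%) were bounded within 1.2-fold. B4galnt1 (chromosome 10, 127165225 to 127172330, plus strand), which opens the path to complex gangliosides, was among the 10 named genes of the smallest p of the comparison. It read 2322, 2609.7 and 2134 in DMSO and 2693, 2737 and 2745 in LCX, wholly higher in LCX by 0.22 (0.085 to 0.35) at an unadjusted p of 0.00256 (limma), bounded within 1.5-fold. B4galt6, which makes lactosylceramide and lies upstream, was wholly lower in LCX by -0.13 (-0.26 to -0.0064). Its relative B4galt5 overlapped between the groups and differed by -0.011 (-0.12 to 0.098), bounded within 1.2-fold. Ugcg, the first enzyme of the path, differed by -0.01 (-0.13 to 0.11). Among the neuroblast markers 13 of 19 (68.4%) were bounded within 1.2-fold and 19 within 2-fold, with the granin Chgb at 0.017 (-0.068 to 0.10). Their list mean was 1 of the 31 whose libraries did not overlap, and the other 30 overlapped, with deviations of 0.021, -0.03 and 0.0091 in DMSO and 0.028, 0.061 and 0.027 in LCX. Of the 15 markers of other cell types 1 was bounded within 1.2-fold and 12 within 2-fold.

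The 31 lists together hold 1182 genes, of which 997 were tested, 184 were below the filter and 1 was not in the table. Within 1.2-fold 793 of the 997 were bounded, 926 within 1.5-fold and 966 within 2-fold, and 0 were called as different. Of the 743 with a mean above 1000, 723 (97.3%) were bounded within 1.2-fold, beside 96.9% of all genes at that level. Of the 254 at or below it, 70 were bounded within 1.2-fold and 223 within 2-fold. The median difference lay within 0.05 of 0 in 29 lists. The list means of LCX minus DMSO ran from -0.049 for the ribosome to 0.0552 for axon guidance. The axon guidance mean takes in Robo2, at 1.40 with a mean of 6.94 normalized counts, and the median of that list was 0.0214. Of the 184 genes below the filter 49 were at 0 in all 6 libraries.

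The genes of the smallest p, none of which passed the adjusted threshold, included genes whose sequence is shared. Tmem254c had a fitted difference of 6.21, which depends on the value added before the log (unadjusted p = 3.08e-05, adjusted p = 0.203, limma). Its values were 3.98, 0 and 0 in DMSO and 448, 148 and 29.4 in LCX. It belongs to a family of 3 transmembrane protein genes on chromosome 14, at 25923300 to 25927672, minus strand (Tmem254a), 26063919 to 26067355, minus strand (Tmem254c) and 26203369 to 26207041, minus strand (Tmem254b). All of its 31-base stretches occur in another gene. The coding sequences of 387 bases, taken from GENCODE vM21 (GRCm38), do not differ at any base, and the first 120 bases, with no capitals because no base differs, show what a read from any of them would carry.
Tmem254a, Tmem254b and Tmem254c: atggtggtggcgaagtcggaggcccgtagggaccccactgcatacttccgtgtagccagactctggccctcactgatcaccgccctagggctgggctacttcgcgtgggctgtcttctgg
Tmem254b ran opposite to Tmem254c, with 466, 458 and 450.1 in DMSO and 30.7, 316 and 472 in LCX. The sum of the 3 genes, formed after these values were seen and given with no test, was 491, 473 and 474 in DMSO and 512, 466 and 516 in LCX. The sums overlapped, with an LCX to DMSO ratio of 1.04.

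Zfp966 and Zfp967, zinc finger genes on chromosome 2 at 175918881 to 175931100, minus strand and 176521056 to 176532479, plus strand, gave another instance. Zfp966 read 315, 450.0 and 499 in DMSO and 159, 161 and 219 in LCX, wholly lower by -1.21 (-1.71 to -0.72) (unadjusted p = 5.25e-05, adjusted p = 0.231, limma). Zfp967 read 212, 0 and 60.8 in DMSO and 346, 375 and 275 in LCX, wholly higher. Their coding sequences of 1455 bases do not differ at any base, and the first 120 bases are shown for the same reason.
Zfp966 and Zfp967: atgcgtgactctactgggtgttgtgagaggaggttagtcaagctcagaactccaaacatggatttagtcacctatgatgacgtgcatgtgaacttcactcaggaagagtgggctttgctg
The sum of both was 527, 450.0 and 559 in DMSO and 504, 536 and 494 in LCX, again overlapping, with a ratio of 0.999. This sum does not cover all copies. Of the 31-base stretches of Zfp966, 55.4% occur in Zfp967 and 66.6% in Zfp968. Those of Zfp967 all (100%) occur also in Zfp968 and in Zfp969, for which no values were given. Eif3j1 and Eif3j2 are copies of an initiation factor subunit gene, and Eif3j2 was the gene above 1000 not bounded within 1.5-fold. They summed to 3038, 2827 and 3196 in DMSO and 2939, 2865 and 3049 in LCX, overlapping. The histone gene Hist1h2br, 89.5% of whose stretches occur elsewhere, read 2.07, 0 and 0 in DMSO and 2.7, 24.1 and 75.6 in LCX. Its sum with Hist1h2bq was 16.9, 47.7 and 30.5 in DMSO and 97.4, 52.6 and 75.6 in LCX, which did not overlap. In all 442 tested genes share at least 50% of their 31-base stretches with another gene.

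**Figure D5:**
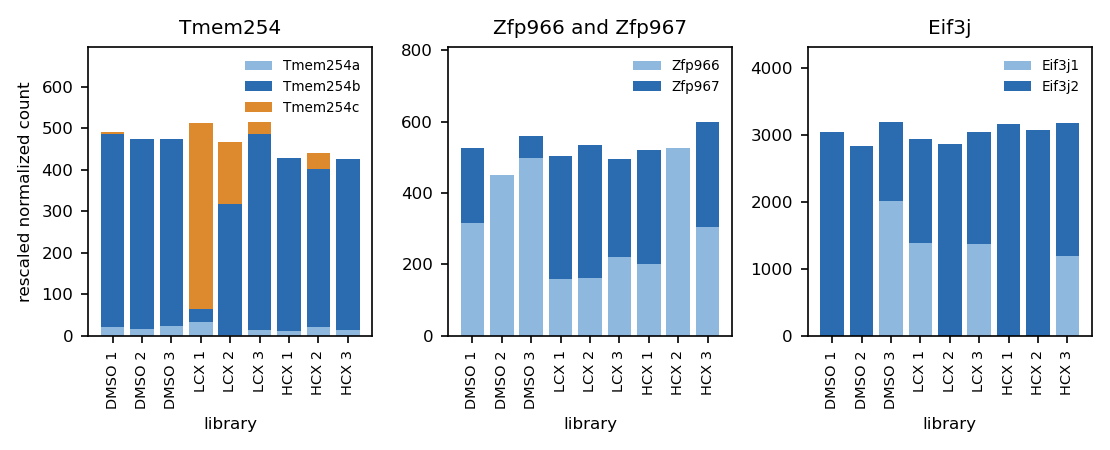
Stacked rescaled normalized counts in each of the 9 libraries for 3 sets of genes with shared sequence. The split between copies varies from library to library, as for Tmem254c (448 in LCX replicate 1 and 0 in DMSO replicate 2), while the Tmem254 stack stays between 466 and 516 in the DMSO and LCX libraries.

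The others were genes that share less of their sequence. Mindy3 (chromosome 2, 12347263 to 12419470, minus strand), a deubiquitinase, read 1976, 2105 and 1993 in DMSO and 1754, 1676 and 1651 in LCX, wholly lower by -0.26 (-0.39 to -0.13) at an unadjusted p of 0.000591 (limma). H1fx (chromosome 6, 87980421 to 87981637, minus strand), a linker histone, read 5611, 5429.5 and 6075 in DMSO and 6337, 6751 and 6499 in LCX, wholly higher by 0.20 (0.086 to 0.30) at an unadjusted p of 0.00131 (limma). Ptk7 (chromosome 17, 46564471 to 46629504, minus strand), a co-receptor of Wnt signalling in planar cell polarity, read 321, 350.2 and 310.5 in DMSO and 412, 431 and 426 in LCX, wholly higher by 0.37 (0.16 to 0.58) at an unadjusted p of 0.0017 (limma). Ndufb4, a subunit of respiratory complex I, was wholly lower by -0.19 (-0.31 to -0.082). Each of these 4 was bounded within 1.5-fold and none within 1.2-fold. Zfp992, a zinc finger gene that shares 48.3% of its stretches, was wholly lower by -0.44 (-0.69 to -0.20).

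Among genes with a mean of at least 100 and separate groups, the largest differences outside the shared copies were these. Zc3h12a (chromosome 4, 125118423 to 125127840, minus strand), an RNase that limits inflammatory messages, read 90.2, 85.3 and 67.6 in DMSO and 169.9, 109 and 115 in LCX, higher by 0.67 (0.25 to 1.09). Wnt11, a secreted ligand, read 91.1, 109 and 88 in DMSO and 163, 135 and 115 in LCX, higher by 0.50 (0.13 to 0.88). Carns1, which makes carnosine, was higher by 0.50 (0.14 to 0.85). On the lower side, Ass1, which makes argininosuccinate, read 179, 175 and 271 in DMSO and 74.6, 90.9 and 116 in LCX. Its difference was -1.14 (-2.35 to 0.074), and 43.1% of its stretches occur in other genes. Acyp2, an acylphosphatase, was lower by -0.52 (-0.92 to -0.12) and Chrd, a secreted inhibitor of BMP, by -0.44 (-0.82 to -0.056). None of these passed the adjusted threshold (limma).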

How the data were processed

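RNA of 9 Neuro2a samples (3 each of DMSO, LCX and HCX) had been sequenced as TruSeq stranded mRNA libraries. The submitters' processing notes name Bowtie, TopHat2, Partek and mm10, whose versions, like the gene annotation, are not given in the sources used here. The authors deposited 1 table of signal values, normalized counts per gene and library on a linear scale, from which whole reads could not be recovered. No counting interval could therefore be given. No other column of sample values is in the table.

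Libraries were rescaled by the median of ratios over the tested genes, and log2(value + 1) was fitted by limma-trend with 1 term per group over all 9 libraries (6 residual and 13.8 prior degrees of freedom). Fold changes on this scale understate low genes. p-values were adjusted by Benjamini-Hochberg over 13179 genes. Bounds came from 2 one-sided tests of the same fit, and intervals are 95% limma intervals. An exact permutation test of 3 against 3 libraries cannot go below 0.1 and was not used. The correlation of same-numbered deviations was -0.029, 0.0492 and 0.00404 between DMSO and LCX, and -0.104, 0.000366 and 0.0414 between LCX and HCX. Between DMSO and HCX it was 0.0671, 0.104 and 0.086, and there differently numbered libraries had -0.0712 to -0.017. Whether replicate numbers pair the samples was therefore not settled, and the main fit had no term for it.

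The genes compared and the 31 lists were chosen with earlier results of these data known. Genes were named by a rule: 58 cytoskeletal and glycosaminoglycan genes; in each list the 3 of the highest mean, the 1 of the smallest p and the 1 of the widest interval; the 10 of the smallest p; and up to 5 in each direction of the largest change at a mean of at least 100 with separate groups. Gm and Rik identifiers and names turned into dates were passed over. A few results that the rule would name are not reported here. Members named outside it (Acta1, Brk1, Pls3, Iqgap1, Agbl5, Cntn2, Unc5a, Cspg4, Itga2, B4galt6, and the copies Tmem254a, Tmem254b, Eif3j1, Eif3j2 and Hist1h2bq) were chosen after their values were seen. Sequences and coordinates are from GENCODE vM21 (GRCm38), and sequence sharing was counted over 31-base stretches of its transcripts. Steps were tested on simulated data. Alternatives were the deposited scale, TMM and library totals, other pseudocounts and filters, a fit to 6 libraries, limma-voom and a replicate block. Further ones were leaving out each DMSO or LCX library and, added after seeing the data, leaving out genes of shared sequence. The software was R 4.3.3 with limma 3.58.1 and, for sequences and drawing, Python 3.11.15 with numpy 2.4.6 and matplotlib 3.10.9.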

Additional observations from a re-analysis of the deposited data

How the results depend on the processing

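The counts of genes bounded within each margin stayed within 1.5 times those reported under every alternative run, but the 1034 genes not bounded within 2-fold became 215 with a pseudocount of 10, 181 with at least 10 in every library and 4942 with no filter, and numbered 902 to 1272 under the others. Within 1.2-, 1.5- and 2-fold, 7991 to 8539, 10836 to 11622 and 11835 to 12964 genes were bounded under the 11 alternatives that kept all libraries compared. The counts were 7347 to 7983, 10845 to 10943 and 11907 to 12003 when each DMSO or LCX library in turn was left out. HCX libraries were not left out singly. The count of genes called was 0 with the deposited scale, TMM, library totals, both pseudocounts, both filters, limma-voom and without genes of shared sequence (added after seeing the data). A fit to the 6 libraries called 2 (Tmem254c and Zfp966), and leaving out each DMSO or LCX library gave 0 to 2. It was 1 (Gm10058) without DMSO replicate 3 and 2 (Gm3020 and Hist1h2br) without LCX replicate 1. The cause was not tested. With a replicate block, although pairing by replicate number was not settled, 3 were called (Gm10058, Tmem254c and Zfp966). On the scale as deposited the median of all genes moved to -0.0389, 15 of the 31 list medians moved by more than the spread between libraries, and 807 genes had an unadjusted p under 0.05. Bounds were looser at lower levels, and the part of sequencing depth in this was not tested.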
